A study of Mus musculus with 4 samples.

Results

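A set of 10 germline genes was followed here: Dazl, Ddx4, Mael, Sycp3, Sycp1, Tex19.1, Asz1, Slc25a31, Stk31 and Hormad1. They were taken by name as germ cell genes known to be kept off in body cells by DNA methylation of their promoters, and all 10 of the 10 were among the 32285 genes of the count tables. Their UMIs, the unique molecular identifiers that tag single RNA molecules, were counted per library and per cell.

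The cells were C3H10T1/2 mesenchymal progenitor cells (MPC), a mouse line that can form muscle, fat and bone-lineage cells in culture. They carried a lentiviral transgene for human histone H3 with C-terminal HA and FLAG tags behind an EF1 promoter, under puromycin selection, either as the wild-type protein (H3WT) or with arginine 26 replaced by cysteine (H3R26C). All 4 libraries therefore held a tagged transgene on top of the cells' own H3. MPC of each genotype received vehicle (DMSO) or 3 µM 5-azacytidine (5-Aza) for 24 h, and the 5-Aza cells were collected at day 28, while the day of collection of the DMSO cells is not given in the sources used here. Each condition had 1 library, so a condition and its library cannot be told apart, no test between conditions was made, and every interval below is a 95% counting interval only.

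After the filter (at least 5000 UMIs, at least 1500 genes and at most 20% mitochondrial UMIs) 22049 of 39891 barcodes were kept, 3710 to 7619 per library, with 84060490 to 110712425 UMIs per library. Median UMIs per kept cell were 22420 in H3WT DMSO, 13149 in H3WT 5-Aza, 16598 in H3R26C DMSO and 13123 in H3R26C 5-Aza. A count of 0 allows up to 3 UMIs, which is 0.0271 to 0.0357 UMIs per 1000000 UMIs of the library (CPM), and a share of cells of up to 0.0394% to 0.0809%. The mesenchymal markers Col1a1, Col1a2, Col3a1, Vim, Thy1, Pdgfrb and Ly6a summed to 13734 to 14750 CPM in all 4 libraries. This sum was mostly Vim and the collagens, and the other markers differed between libraries. Thy1 had 110, 123, 37.6 and 50.5 CPM in H3WT DMSO, H3WT 5-Aza, H3R26C DMSO and H3R26C 5-Aza. In that order Pdgfrb had 193, 165, 178 and 104 CPM, and Ly6a had 578, 1034, 667 and 1582 CPM. The 10 spermatid and oocyte markers, mostly UMIs of the oocyte genes Gdf9 and Zp3, summed to 2.56 CPM in H3WT DMSO, 2.31 CPM in H3WT 5-Aza, 2.30 CPM in H3R26C DMSO and 1.69 CPM in H3R26C 5-Aza. Among the spermatid genes the protamines Prm1 and Prm2 and the transition protein Tnp2 were at 0 in every library, while Tnp1 had 0, 3, 1 and 10 UMIs and Acrv1 had 0, 0, 0 and 2 in that order. The oocyte growth factor Bmp15 had 5, 7, 1 and 2.

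DNA methylation of a CpG-rich promoter keeps many germ cell genes off in body tissues, and the mark is copied at each cell division by DNMT1. 5-Aza is built into nucleic acids, traps DNA methyltransferases and so lowers methylation in dividing cells. A second layer at many of the same promoters is the PRC1.6 complex, which reaches E2F6-type sites through E2F6 and E-boxes through MGA and MAX. The genes followed here act in 3 parts of germ cell biology: the piRNA machinery that restrains transposons (Ddx4, Mael, Asz1 and Tex19.1 as a related restraint factor), the synaptonemal complex and chromosome axes of meiosis (Sycp1, Sycp3, Hormad1), and other germ cell functions (Dazl, Slc25a31, Stk31).

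Promoter sequences are shown for 5 of the 10 genes and for 1 neighbour, because they cover the range seen: Tex19.1, Slc25a31 and Asz1 gained UMIs in both 5-Aza libraries, Mael and Dazl stayed at or under 3 UMIs, and Tex19.2 is the neighbour and paralogue of Tex19.1. Each run is the 250 bases before the RefSeq start site (GRCm38.p6), written 5′ to 3′ in the direction of the gene, with CpG in capitals. They lie at chr11:121145893-121146142 on the plus strand (Tex19.1), chr3:40708621-40708870 on the plus strand (Slc25a31), chr6:18109062-18109311 on the minus strand (Asz1), chr1:166238745-166238994 on the minus strand (Mael), chr17:50293621-50293870 on the minus strand (Dazl) and chr11:121118678-121118927 on the minus strand (Tex19.2).
Tex19.1: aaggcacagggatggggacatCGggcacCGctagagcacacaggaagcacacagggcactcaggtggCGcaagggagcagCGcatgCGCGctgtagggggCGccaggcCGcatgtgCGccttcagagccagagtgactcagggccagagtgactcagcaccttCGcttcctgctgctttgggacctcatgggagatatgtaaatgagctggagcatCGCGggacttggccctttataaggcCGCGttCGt
Slc25a31: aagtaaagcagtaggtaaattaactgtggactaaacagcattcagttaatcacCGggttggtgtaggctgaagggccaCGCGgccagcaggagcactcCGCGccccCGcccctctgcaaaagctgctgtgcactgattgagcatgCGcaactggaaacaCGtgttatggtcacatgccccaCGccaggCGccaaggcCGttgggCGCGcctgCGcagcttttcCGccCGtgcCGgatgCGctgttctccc
Asz1: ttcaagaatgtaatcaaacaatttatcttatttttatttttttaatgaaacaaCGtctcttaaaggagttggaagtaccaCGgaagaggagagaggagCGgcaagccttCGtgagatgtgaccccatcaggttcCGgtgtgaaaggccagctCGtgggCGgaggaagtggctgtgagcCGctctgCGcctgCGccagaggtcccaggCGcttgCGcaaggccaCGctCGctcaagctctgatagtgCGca
Mael: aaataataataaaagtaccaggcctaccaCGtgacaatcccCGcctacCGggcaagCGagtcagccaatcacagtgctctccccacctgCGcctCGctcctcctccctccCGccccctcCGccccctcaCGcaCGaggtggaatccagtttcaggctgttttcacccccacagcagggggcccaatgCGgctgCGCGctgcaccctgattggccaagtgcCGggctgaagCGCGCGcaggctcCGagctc
Dazl: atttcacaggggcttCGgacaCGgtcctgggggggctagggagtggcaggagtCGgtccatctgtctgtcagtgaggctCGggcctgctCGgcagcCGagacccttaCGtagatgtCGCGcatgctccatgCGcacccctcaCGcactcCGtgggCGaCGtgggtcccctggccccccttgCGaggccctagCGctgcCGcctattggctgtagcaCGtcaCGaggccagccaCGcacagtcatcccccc
Tex19.2: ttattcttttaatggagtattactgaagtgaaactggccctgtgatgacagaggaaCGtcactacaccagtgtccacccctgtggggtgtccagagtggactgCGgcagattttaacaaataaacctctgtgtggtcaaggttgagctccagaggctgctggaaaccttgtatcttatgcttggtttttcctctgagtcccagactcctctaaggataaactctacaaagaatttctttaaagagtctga

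The 10 promoters were CpG-rich. In windows from 250 bases before to 50 bases after the start they held a median of 23 CpG (15 to 38), against a median of 7 over the 27025 genes with a RefSeq promoter, and their observed over expected CpG had a median of 0.789 (0.575 to 0.978), against 0.389. Stk31 and Hormad1 each had 2 start sites in the table, of which the first was used. Tex19.2 stood apart from these, with 2 CpG in its window and an observed over expected CpG of 0.130.

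**Figure D1:**
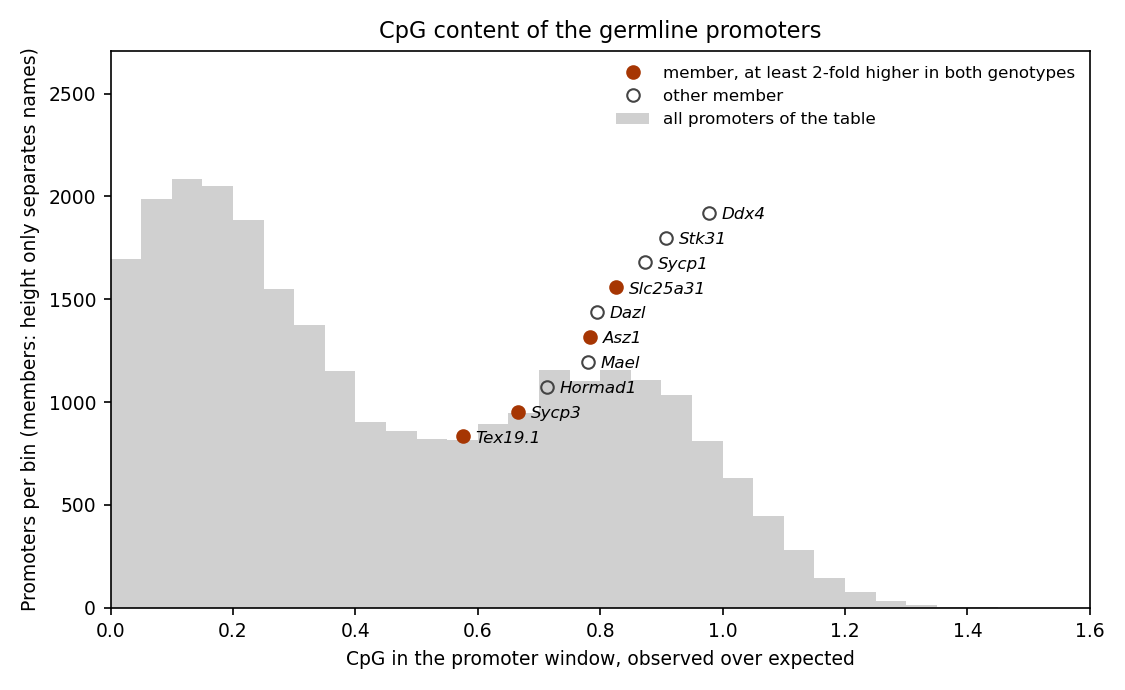
Observed over expected CpG in promoter windows (x axis, no unit) for all 27025 genes (grey bars, genes per bin on the y axis) and for the 10 germline genes (circles, whose height only separates the names). Filled circles mark the 4 genes at least 2-fold higher after 5-Aza in both genotypes, and the 10 genes lie between 0.575 (Tex19.1) and 0.978 (Ddx4).

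Motif letters were searched on both strands. TCCCGC or GCGGGA, the core of an E2F6-type site, was in 7 of the 10 windows, against 5410 of all 27025 windows and 43.0% of the 8354 windows with 15 to 38 CpG. The E-box CACGTG was in 7 of 10, against 7.24% and 11.5%, and both were in 6 of 10, against 2.05% and 4.74%. Each motif holds a CpG itself, so CpG-rich windows hold it more often, and none of the strings contains another. Counted from 0 at the start site, the Tex19.1 window had GCGGGA at -33 and no E-box, Mael had E2F6-type strings at -143 and 11 and an E-box at -223, Slc25a31 had an E-box at -93 and an E2F6-type string at 20, and Dazl and Asz1 had neither. A match is only a string in the window, and no binding or methylation was measured in these libraries.

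Summed over the 10 genes, the 5-Aza libraries stood above the DMSO libraries in both genotypes. The sum was 43 UMIs in H3WT DMSO (0.495 CPM, interval 0.358 to 0.667), 81 in H3R26C DMSO (0.964 CPM, 0.765 to 1.20), 630 in H3WT 5-Aza (7.47 CPM, 6.90 to 8.08) and 1661 in H3R26C 5-Aza (15.0 CPM, 14.3 to 15.7). The ratio of 5-Aza to DMSO was 15.1 (11.1 to 21.1) in H3WT and 15.6 (12.5 to 19.7) in H3R26C. The order from lowest to highest was H3WT DMSO, H3R26C DMSO, H3WT 5-Aza and H3R26C 5-Aza, with no overlap of neighbouring counting intervals. These intervals take UMIs as independent. UMIs of Tex19.1, Slc25a31 and Sycp3 after 5-Aza and of Ddx4 in both H3R26C libraries were clumped in cells. The intervals of the sums and of these genes are therefore too narrow, here and below.

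The sum rested mostly on Tex19.1, which gave 67.6% of the 630 UMIs in H3WT 5-Aza and 74.1% of the 1661 in H3R26C 5-Aza but 0 in both DMSO libraries. Over the other 9 genes the ratio of 5-Aza to DMSO was 4.89 (3.50 to 6.96) in H3WT and 4.04 (3.18 to 5.19) in H3R26C. In DMSO the UMIs came from Sycp3, Ddx4 and Sycp1, which gave 48.8%, 25.6% and 18.6% of the sum in H3WT and 22.2%, 65.4% and 9.88% in H3R26C.

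**Figure D2:**
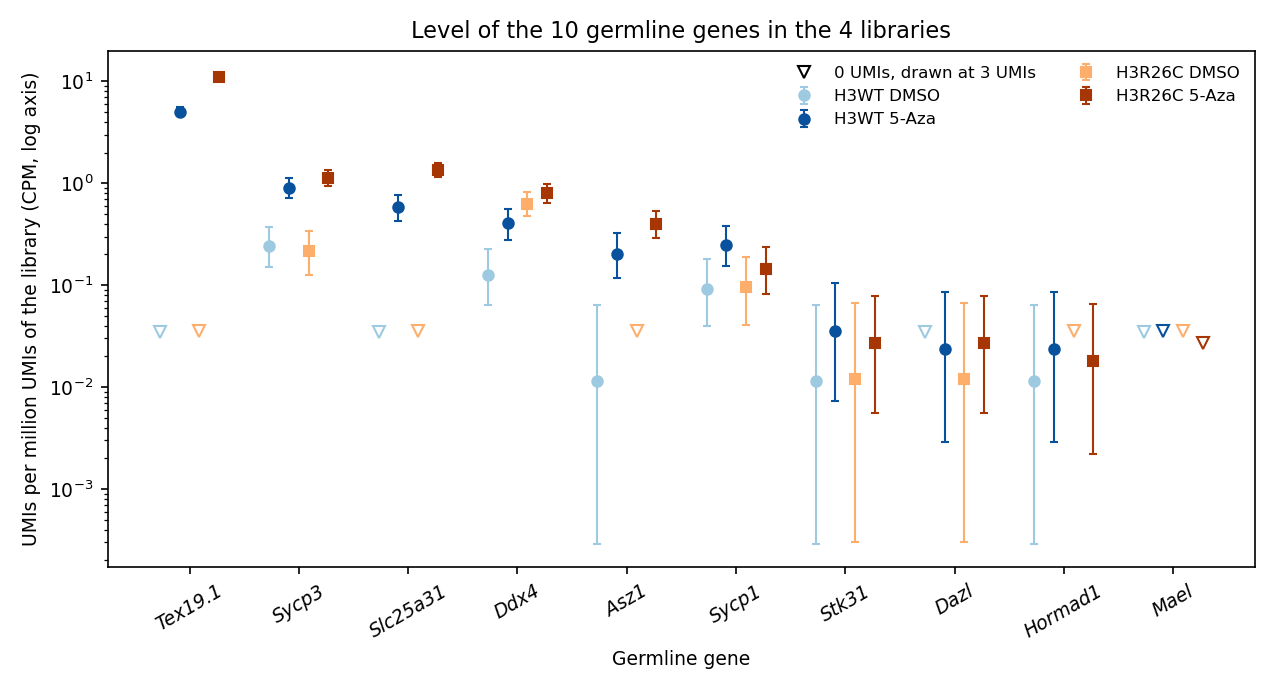
CPM (log axis) for each of the 10 genes in the 4 libraries, with 95% Poisson intervals as bars. Open triangles mark 0 UMIs, drawn at the level of 3 UMIs. Tex19.1 and Slc25a31 were at 0 in both DMSO libraries, and Stk31, Dazl, Hormad1 and Mael were at or under 3 UMIs everywhere.

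A gene was called higher where log2(CPM + 0.1) differed by at least 1 (a 2-fold difference) and the pair of libraries held at least 10 of its UMIs. In H3WT, 6 of the 10 genes passed the minimum and 5 were called higher in 5-Aza (Ddx4, Sycp3, Tex19.1, Asz1 and Slc25a31), beside 9.59% of all genes that passed and 20.2% of those with 10 to 1000 UMIs over the 4 libraries. In H3R26C, 6 passed and 4 were called higher (Sycp3, Tex19.1, Asz1 and Slc25a31), beside 14.6% of all genes and 29.6% of those with 10 to 1000 UMIs. None of the 6 that passed was called lower in either genotype, where 0.765% and 4.31% of all genes were. Beside shares this small, little can be read from a count of 0. Genes that reach the minimum through 5-Aza alone, as Tex19.1, Asz1 and Slc25a31 did, had to differ, so these counts are descriptions and not support. The median log2 difference of the 6 that passed was 1.49 in H3WT and 2.14 in H3R26C, beside medians over all genes of 0.06 and 0.02. Over genes with 10 to 1000 UMIs the medians were 0.15 and 0.32. The minimum partly fixed the medians of the 6 too, so they are descriptions only.

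**Figure D3:**
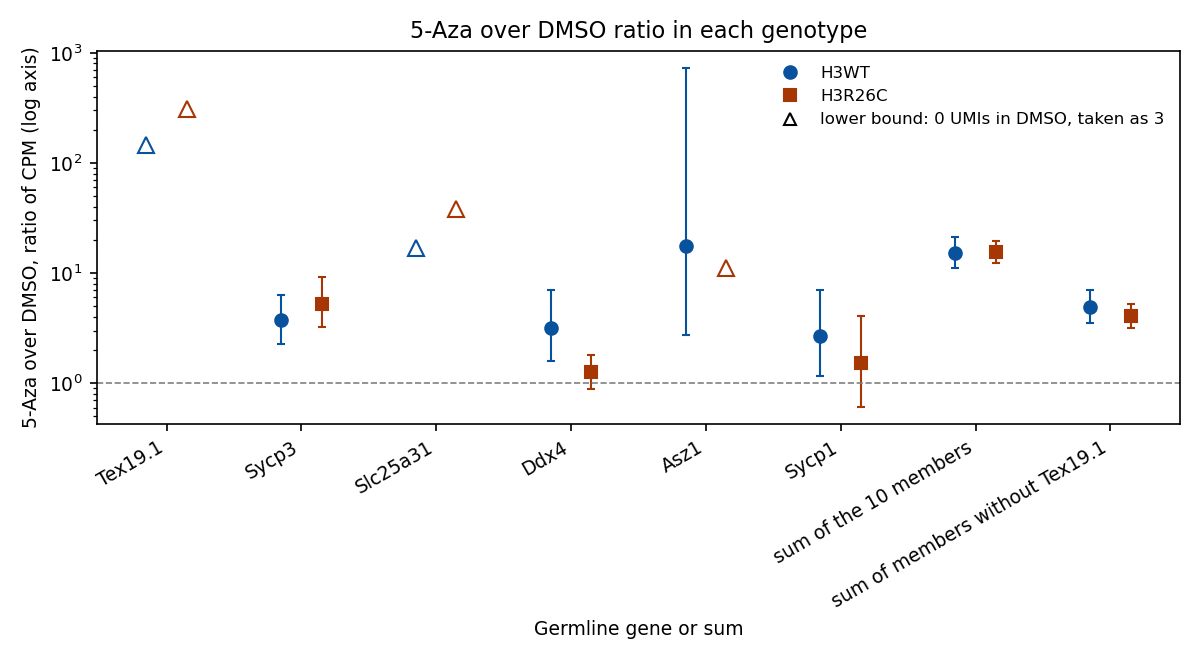
Ratio of 5-Aza to DMSO CPM (log axis) in H3WT (circles) and H3R26C (squares) for the 6 genes that passed the minimum and for 2 sums, with 95% counting intervals as bars. Open triangles are lower bounds where DMSO had 0 UMIs, and the dashed line marks a ratio of 1, which the intervals of Ddx4 and Sycp1 in H3R26C include.

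Among the genes that act on transposons, Tex19.1 was counted in the 5-Aza libraries only. Tex19.1 is a cytoplasmic protein of germ cells, placenta and pluripotent cells that restrains retrotransposons. It had 0 UMIs in H3WT DMSO, 426 in H3WT 5-Aza, 0 in H3R26C DMSO and 1230 in H3R26C 5-Aza, so the DMSO and 5-Aza libraries were fully apart. With DMSO set at 3 UMIs, its CPM was at least 146-fold higher in 5-Aza in H3WT and at least 311-fold higher in H3R26C. Cells with a Tex19.1 UMI were 0 of 3710 (up to 0.0809%), 285 of 5993 (4.76%, 4.23% to 5.33%), 0 of 4727 (up to 0.0635%) and 638 of 7619 (8.37%, 7.76% to 9.02%) in the same order. Tex19.1 spans chr11:121146143-121148319 on the plus strand (GENCODE M21, GRCm38).

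The Tex19.1 UMIs were concentrated in few cells. In H3WT 5-Aza, 81 cells held at least 2 UMIs, against 16.2 if its UMIs were spread over cells in proportion to their total UMIs, and these 81 cells held 52.1% of its UMIs. In H3R26C 5-Aza, 252 cells held at least 2, against 102, and held 68.6% of its UMIs. The highest single-cell counts were 7 UMIs in H3WT and 17 in H3R26C, and 21 H3R26C cells held at least 7. Cells with a Tex19.1 UMI were only slightly deeper than the rest, with medians of 14845 against 13079 UMIs in H3WT and 15607 against 12951 in H3R26C.

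**Figure D4:**
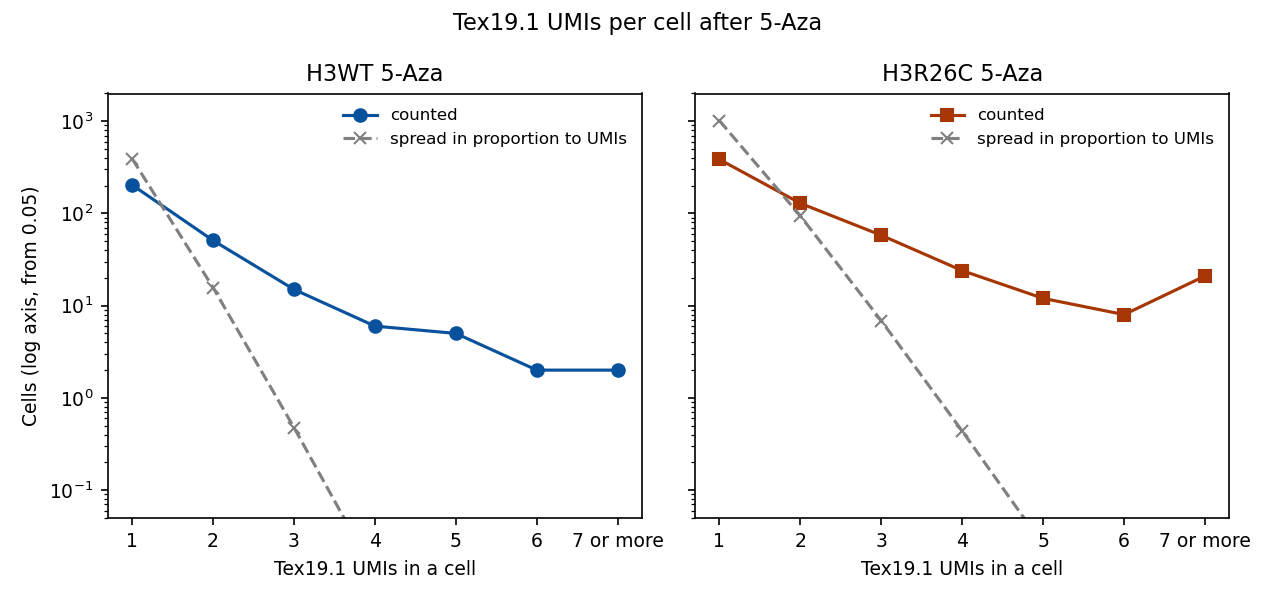
Number of cells (log axis, drawn from 0.05) with 1, 2, 3, 4, 5, 6 and at least 7 Tex19.1 UMIs in H3WT 5-Aza (left) and H3R26C 5-Aza (right). Coloured points are counts, and grey crosses give the number if UMIs were spread in proportion to each cell's total. At 3 UMIs the counts were 15 against 0.477 in H3WT and 58 against 6.87 in H3R26C.

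Asz1, an ankyrin-repeat protein that anchors the piRNA machinery at germ cell mitochondria, had 1 UMI in H3WT DMSO, 17 in H3WT 5-Aza, 0 in H3R26C DMSO and 44 in H3R26C 5-Aza. Both 5-Aza libraries lay above both DMSO libraries, and the ratio was 17.5 (2.74 to 732) in H3WT and at least 11.1 in H3R26C. Its UMIs were spread thinly, at 1 in each of 17 cells in H3WT and at most 2 per cell in 42 cells of H3R26C.

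Ddx4 encodes VASA, the RNA helicase of the germ plasm and nuage, and it departed from this pattern. It had 11 UMIs in H3WT DMSO, 34 in H3WT 5-Aza, 53 in H3R26C DMSO and 88 in H3R26C 5-Aza. H3R26C without 5-Aza was at 0.630 CPM (0.472 to 0.825) and H3WT with it at 0.403 CPM (0.279 to 0.563), so these intervals overlapped. The ratio of 5-Aza to DMSO was 3.18 (1.58 to 6.97) in H3WT and 1.26 (0.887 to 1.81) in H3R26C, and the H3R26C interval included 1. Between DMSO libraries H3R26C was 4.98 times H3WT (2.57 to 10.6). The 53 UMIs of H3R26C DMSO fell in 40 cells, 9 of which held at least 2 where 0.332 would follow from depth. Mael, which acts in piRNA-directed silencing, had 0 UMIs in all 4 libraries, so it stayed under 0.0271 to 0.0357 CPM with 5-Aza or without.

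Of the genes of meiotic chromosomes, Sycp3 differed with 5-Aza in both genotypes. Sycp3, which builds the lateral element of the synaptonemal complex, had 21 UMIs in H3WT DMSO, 76 in H3WT 5-Aza, 18 in H3R26C DMSO and 125 in H3R26C 5-Aza, with both DMSO libraries low. The ratio was 3.73 (2.27 to 6.36) in H3WT and 5.27 (3.20 to 9.19) in H3R26C. At least 2 Sycp3 UMIs were held by 7 cells in H3WT 5-Aza and 20 in H3R26C 5-Aza. Depth alone would give 0.543 and 1.20, so these intervals are too narrow. An exon of Sycp3 overlaps an exon of Chpt1 on the other strand, and the part of Chpt1 RNA in its low counts was not tested.

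Sycp1, the transverse filament of the same complex, had 8 UMIs in H3WT DMSO, 21 in H3WT 5-Aza, 8 in H3R26C DMSO and 16 in H3R26C 5-Aza. Its ratio of 2.70 (1.15 to 7.06) in H3WT did not pass the 2-fold rule with the pseudocount, and its ratio of 1.52 (0.613 to 4.10) in H3R26C had an interval that included 1. A transcript of Sycp1 other than the longest shares exact runs of at least 50 bases with 29 other genes, so its few UMIs are uncertain. Hormad1, a HORMA-domain protein of chromosome axes, had 1, 2, 0 and 2 UMIs in H3WT DMSO, H3WT 5-Aza, H3R26C DMSO and H3R26C 5-Aza, which allows no ratio.

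Slc25a31, the testis form of the mitochondrial ADP/ATP carrier, followed the course of Tex19.1. It had 0 UMIs in H3WT DMSO, 49 in H3WT 5-Aza, 0 in H3R26C DMSO and 150 in H3R26C 5-Aza, again with no overlap. Its CPM was at least 16.8-fold higher in 5-Aza in H3WT and at least 38.0-fold higher in H3R26C. Its UMIs fell in 36 H3WT and 106 H3R26C cells, of which 9 and 27 held at least 2 (0.226 and 1.72 from depth), with up to 10 UMIs in 1 H3R26C cell.

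The remaining genes stayed near the limit of detection. Dazl, an RNA-binding protein needed for germ cell commitment, had 0, 2, 1 and 3 UMIs in H3WT DMSO, H3WT 5-Aza, H3R26C DMSO and H3R26C 5-Aza, and Stk31, a testis protein with Tudor and kinase domains, had 1, 3, 1 and 3. With Mael and Hormad1 these made 4 genes at or under 3 UMIs in every library, for which a difference was not detectable at this depth. Their promoter windows held 24 to 29 CpG (median 26), and those of the 4 genes called higher in both genotypes held 15 to 22 (median 16.5), while Ddx4 held 38 and Sycp1 21. These groups were formed after the values were seen, so the gap is a description of 4 genes against 4.

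Between genotypes after 5-Aza, the sum in H3R26C was 2.01 times that in H3WT (1.83 to 2.21), and 1.61 times (1.36 to 1.91) without Tex19.1. Tex19.1 was 2.20 times as high (1.97 to 2.46), Slc25a31 2.33 times (1.68 to 3.29), Ddx4 1.97 times (1.31 to 3.02) and Asz1 1.97 times (1.10 to 3.68). Sycp3 at 1.25 times (0.935 to 1.69) and Sycp1 at 0.580 times (0.283 to 1.17) had intervals that included 1. Of the 6 genes that passed, 2 were called higher in H3R26C (Tex19.1 and Slc25a31) and 0 lower, beside 8.74% of all genes called higher, 4.32% called lower and 16.6% of genes with 10 to 1000 UMIs called higher.

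Between the DMSO libraries the sum in H3R26C was 1.95 times that in H3WT (1.33 to 2.89). Ddx4 gave 11 of the 43 UMIs in H3WT and 53 of the 81 in H3R26C, so the difference rested on this gene. In H3R26C 22 of its 53 UMIs lay in 9 cells, so the interval is too narrow. Ddx4 was the only 1 of 3 genes that passed to be called higher, beside 3.74% of all genes called higher, 1.58% called lower and 6.11% of genes with 10 to 1000 UMIs called higher. Sycp3 stood at 0.886 times (0.445 to 1.75) and Sycp1 at 1.03 times (0.338 to 3.16), and Tex19.1 and Slc25a31 were at 0 in both. Since 5-Aza over DMSO in each genotype and H3R26C over H3WT share libraries, these ratios are not independent of each other.

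Cells with a UMI of any of the 10 genes were 42 of 3710 in H3WT DMSO (1.13%), 433 of 5993 in H3WT 5-Aza (7.23%), 68 of 4727 in H3R26C DMSO (1.44%) and 923 of 7619 in H3R26C 5-Aza (12.1%). With each cell thinned to 5000 UMIs, the shares were 0.377% (0.206% to 0.632%), 3.04% (2.62% to 3.50%), 0.571% (0.377% to 0.830%) and 5.62% (5.11% to 6.16%) in that order. The 5-Aza libraries lay above the DMSO libraries at equal depth. Cells with UMIs of at least 2 of the genes were 0 in both DMSO libraries. Spreading by depth gives only 0.175 in H3WT DMSO and 0.313 in H3R26C DMSO, so these 0 counts carry little information. Such cells were 29 in H3WT 5-Aza and 52 in H3R26C 5-Aza, where spreading by depth gives 11.6 and 38.7. After thinning they were 5 and 10, for which no number by depth was computed. No kept cell held more than 3 of the 10 genes.

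In cells with a Tex19.1 UMI, the other 9 genes summed to 7.45 CPM in H3WT 5-Aza, against 2.13 CPM in cells without (ratio 3.50, 2.34 to 5.08), and to 5.12 against 3.76 CPM in H3R26C 5-Aza (1.36, 1.01 to 1.81). Asz1 was higher in Tex19.1 cells of both libraries, at 7.28 times (2.01 to 22.2) in H3WT and 9.98 times (5.28 to 19.0) in H3R26C. Slc25a31 was not alike in the 2 libraries, at 4.48 times (2.00 to 9.14) in H3WT and 0.582 times (0.261 to 1.14) in H3R26C. Sycp3 was 4.30 times as high in H3WT (2.27 to 7.65) and 1.24 times in H3R26C (0.673 to 2.14). These cells were picked by 1 member after the values were seen, cells of 1 library are not replicates, and no doublets were removed.

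The levels of the germline genes were also set beside 3 ranges of cell state in the 5-Aza libraries. In cells with at least 1% muscle marker UMIs (127 cells in H3WT and 201 in H3R26C) the sum was 1.45 times that of the other cells in H3WT (0.904 to 2.22) and 0.421 times in H3R26C (0.279 to 0.611). In cells with at least 10 cycling marker UMIs per 10000 (380 and 1106 cells) it was 0.785 times (0.564 to 1.07) and 1.06 times (0.935 to 1.19). There Slc25a31 was 3.03 times (1.40 to 6.04) and 1.65 times (1.14 to 2.37), and Tex19.1 0.652 times (0.417 to 0.977) and 1.03 times (0.890 to 1.18). Sycp3 was 0.581 times (0.154 to 1.55) and 1.20 times (0.765 to 1.84). Ddx4 had 0 UMIs in that range in H3WT and was 0.454 times (0.200 to 0.906) in H3R26C. In cells with at least 20 interferon marker UMIs per 10000 (134 and 3095 cells) the sum was 1.79 times (1.14 to 2.68) and 0.949 times (0.859 to 1.05).

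Within the interferon range of H3R26C 5-Aza the genes parted. Slc25a31 was 3.43 times as high in as out (2.39 to 4.99), Ddx4 1.87 times (1.20 to 2.94) and Tex19.1 0.768 times (0.682 to 0.865). In H3WT 5-Aza Tex19.1 was 1.76 times as high in that range (0.997 to 2.89), and Slc25a31 and Ddx4 had only 3 and 1 UMIs in it. The cells within 20% of that cut were many, 1317 in H3R26C and 144 in H3WT, so the range is no cell type. Cell state differed between the libraries as a whole: the 10 interferon markers summed to 255 CPM in H3WT DMSO, 538 in H3WT 5-Aza, 387 in H3R26C DMSO and 2188 in H3R26C 5-Aza, all 10 above 0 in each, and the 10 cycling markers to 304, 525, 613 and 1023 CPM in the same order. Their part in the germline differences was not tested.

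The other genes of the germline were read from 3 lists. Of the piRNA pathway, 9 of 16 genes passed in H3WT, with 5 called higher and 1 lower in 5-Aza, and 10 passed in H3R26C, with 6 higher and 1 lower. Over all genes the shares called higher were 9.59% and 14.6%, and among genes with 10 to 1000 UMIs 20.2% and 29.6%. The shares called lower over all genes were 0.765% and 4.31%. In each genotype 4 of the piRNA genes that passed (Fkbp6, Gtsf1, Gpat2 and Mov10l1) had at most 3 UMIs in DMSO, so they met the minimum through 5-Aza and had to differ. Fkbp6, a piRNA co-chaperone, had 0, 224, 0 and 362 UMIs in H3WT DMSO, H3WT 5-Aza, H3R26C DMSO and H3R26C 5-Aza, and Gtsf1, a PIWI cofactor, had 0, 133, 0 and 399. The gene lower in both was the helicase Tdrd9, at 0.458 times (0.401 to 0.522) in H3WT and 0.179 times (0.147 to 0.217) in H3R26C. Tdrd7, a Tudor protein that is also used outside the germline, had 1887 UMIs in H3WT DMSO, 1840 in H3WT 5-Aza, 1707 in H3R26C DMSO and 3079 in H3R26C 5-Aza. Per library size this was 21.7, 21.8, 20.3 and 27.8 CPM.

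Of the meiotic chromosome genes, 10 of the 23 found passed in H3WT, with 4 called higher, and 13 passed in H3R26C, with 5 called higher and 0 lower in both. Over all genes 9.59% and 14.6% were called higher and 0.765% and 4.31% lower, so little can be read from the 0. Among genes with 10 to 1000 UMIs 20.2% and 29.6% were called higher. Of the meiotic genes that passed, 5 of the 10 and 3 of the 13 had at most 3 UMIs in DMSO. Tex15 had 11, 145, 11 and 117 UMIs in H3WT DMSO, H3WT 5-Aza, H3R26C DMSO and H3R26C 5-Aza, and Syce2, of the central element, had 3, 23, 8 and 129. Msh5 and Brdt, with 245 and 200 UMIs already in H3WT DMSO, were 1.16 times (0.970 to 1.38) and 1.27 times (1.05 to 1.53) as high in H3WT 5-Aza. In H3R26C the 5-Aza over DMSO ratios were larger, at 1.81 (1.56 to 2.10) for Msh5 and 1.89 (1.64 to 2.19) for Brdt. The median log2 difference of those that passed was 0.86 in H3WT and 0.89 in H3R26C, beside 0.15 and 0.32 over genes with 10 to 1000 UMIs. The minimum count partly fixed the medians of this list.

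Of other germ cell and placental genes, 12 of 21 passed in H3WT with 10 called higher, and 13 passed in H3R26C with 12 called higher and 1 lower (Nanos3). Over all genes 9.59% and 14.6% were called higher and 0.765% and 4.31% lower. Among genes with 10 to 1000 UMIs 20.2% and 29.6% were called higher. Of those that passed, 9 in H3WT and 10 in H3R26C had at most 3 UMIs in DMSO and so had to differ. Rhox5, an X-linked homeobox gene of the male reproductive tract and placenta, had 13, 2285, 71 and 5883 UMIs in H3WT DMSO, H3WT 5-Aza, H3R26C DMSO and H3R26C 5-Aza. Tuba3b, a testis tubulin, had 1, 101, 1 and 444, and Nanos3, an RNA-binding protein of early germ cells, had 177, 142, 180 and 96. The median log2 difference of those that passed was 2.70 in H3WT and 3.80 in H3R26C, values that the minimum count largely fixed.

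Tex19.2 differed from its neighbour Tex19.1. It lies 27465 bases away on chromosome 11 on the opposite strand, and it had 1, 25, 0 and 1621 UMIs in H3WT DMSO, H3WT 5-Aza, H3R26C DMSO and H3R26C 5-Aza. After 5-Aza it was 49.4 times as high in H3R26C as in H3WT (33.3 to 76.6), where Tex19.1 was 2.20 times as high, and its printed promoter held 2 CpG against 15 in the printed run of Tex19.1. The longest transcripts of the pair share no exact run of 50 bases, and shorter matches were not searched. In H3WT 5-Aza, 15 of the 25 Tex19.2 UMIs lay in 4 of the 285 cells with a Tex19.1 UMI, so 1.40% of these cells and 0.123% of the others held one. In H3R26C 5-Aza the shares were 15.4% (98 of 638 cells) and 7.43%. Other genes read in H3R26C 5-Aza were also found more often in Tex19.1 cells, so in that library this was not particular to Tex19.2. The shares were 33.9% against 18.3% for Rhox5, 10.5% against 2.89% for Fkbp6 and 6.74% against 2.78% for Tuba3b. For Tex13b they were 4.70% against 2.98%, and for Gtsf1 3.76% against 3.18%. Tex19.1 cells of H3R26C 5-Aza were deeper (medians of 15607 against 12951 UMIs), and these shares were not thinned. In H3WT 5-Aza the CPM of Tex19.2 was 26.2 times as high in Tex19.1 cells as in the others (11.0 to 65.3), resting on 4 cells. There the ratio was 5.15 for Tuba3b, 2.30 for Fkbp6, 2.06 for Gtsf1, 1.68 for Rhox5 and 1.54 (0.686 to 3.04) for Tex13b.

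Genes of PRC1.6 and of DNA methylation were read in the same way, and the 2 lists differed. All 17 PRC1.6 subunits and partners passed in each genotype, and 0 were called in either direction between 5-Aza and DMSO, where 9.59% of all genes were called higher and 0.765% lower in H3WT and 14.6% and 4.31% in H3R26C. With 17 genes, little can be read from a count of 0 beside these shares. Those with the most UMIs were Hdac2, Cbx3, Ehmt2 and Hdac1, at 121, 103, 118 and 79.1 CPM in H3WT DMSO. All 17 summed to 824 CPM in H3WT DMSO, 850 in H3WT 5-Aza, 877 in H3R26C DMSO and 843 in H3R26C 5-Aza. Under the 2-fold cut single genes still differed between 5-Aza and DMSO, in both directions. Ehmt2 was 0.833 times (0.809 to 0.857) in H3WT and 0.674 times (0.654 to 0.695) in H3R26C. E2f6, picked after its values were seen, was 1.59 times (1.47 to 1.71) and 1.31 times (1.24 to 1.40). Of the 8 DNA methylation enzymes and partners, Dnmt3l, the cofactor of de novo methylation in germ cells, was called higher in both genotypes, with 13, 60, 9 and 123 UMIs, and Dnmt3b and Tet1 were called lower in H3R26C. These 8 summed to 218 CPM in H3WT DMSO, 167 in H3WT 5-Aza, 203 in H3R26C DMSO and 141 in H3R26C 5-Aza. Their median log2 difference with 5-Aza was -0.29 in H3WT and -0.73 in H3R26C. The maintenance enzyme Dnmt1 had 38.7, 39.0, 51.7 and 46.1 CPM in H3WT DMSO, H3WT 5-Aza, H3R26C DMSO and H3R26C 5-Aza, the de novo enzyme Dnmt3a had 4271, 3025, 3134 and 2119 UMIs, and the demethylation enzymes Tet3 and Tet2 had 66.9, 43.1, 46.3 and 24.8 CPM and 27.3, 20.7, 24.3 and 16.5 CPM.

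**Figure D5:**
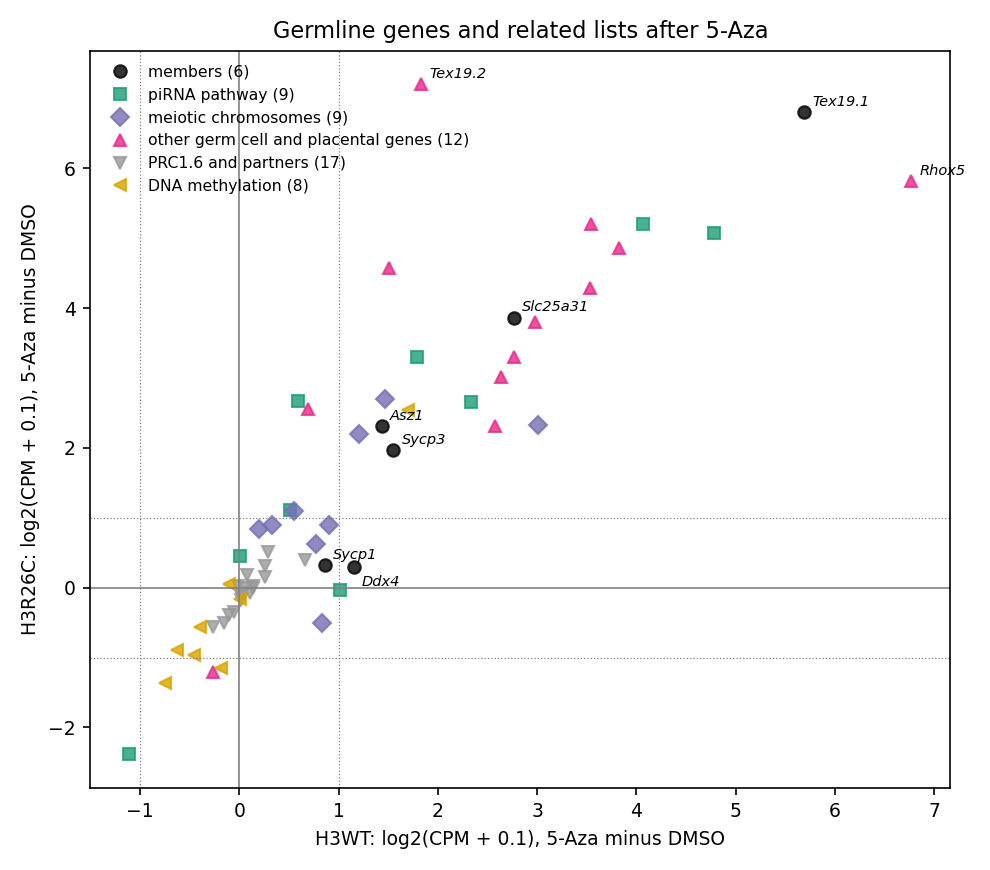
Difference in log2(CPM + 0.1) between 5-Aza and DMSO in H3WT (x axis) and H3R26C (y axis) for genes with at least 10 UMIs in each pair, by list (numbers of genes in the key). Dotted lines mark a difference of 1 in either direction. Tex19.1 lies at 5.69 and 6.81, Rhox5 at 6.77 and 5.82 and Tex19.2 at 1.83 and 7.20, and the 17 PRC1.6 genes lie between the dotted lines.

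The genes nearest in pattern to the summed germline genes, by Euclidean distance in log2(CPM + 0.1) over the 4 libraries among 15523 genes with at least 50 UMIs, were Itga7 (0.747), Platr3 (0.795), Aim2 (0.808), Cd34 (0.871) and Steap1 (0.941). Itga7 had 0.656, 9.03, 0.916 and 22.8 CPM in H3WT DMSO, H3WT 5-Aza, H3R26C DMSO and H3R26C 5-Aza. Between 24 and 58 barcodes were shared by each pair of libraries, at most 1.11% of either, and in no pair did a shared barcode hold a germline UMI in both. At most 6 shared barcodes of a pair held a germline UMI in the first library, so this absence carries little information.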

How the data were processed

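Single-cell RNA libraries (10x Genomics) of 4 conditions were analysed. The authors made the deposited UMI counts with Cell Ranger (version 6.1.0 per the file headers) on the mm10 reference, and the count tables are raw, filtered only by Cell Ranger's cell call. The cell filter of the study was applied here. UMIs were summed per library and divided by its UMIs (CPM). Intervals are exact Poisson, Clopper-Pearson binomial and conditional binomial intervals at 95%, for counting error only. A fold against 0 used 3 UMIs per library as a floor. Cells were thinned to 5000 UMIs by sampling without replacement. No doublets were removed and no doublet caller was run, and the chemistry is not given in the sources used here.

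All 10 genes are named, and from each germline, PRC1.6 and DNA methylation list and the spermatid and oocyte markers the 4 genes with the most UMIs, or genes behind a count of 5 or fewer. Other marker lists are given as sums, with single values for the mesenchymal markers Thy1, Pdgfrb and Ly6a. Other genes, such as those at 0 in DMSO in the closing section, were named after their values were seen. The genes, lists and rules were chosen with earlier results of these data known. Six6os1 was not matched by name. Gene positions came from GENCODE M21 (99.8% of gene identifiers matched) and promoters from RefSeq (GRCm38.p6). Genes read in Tex19.1 cells outside the list were picked after values were seen. The fold calls, intervals and thinning were tested on simulated data first. Changes were planted only in genes with more UMIs in H3WT DMSO than any of the 10 genes had there. Clumping of UMIs in cells was not simulated, so that test does not cover calls or intervals at the levels of these genes. Python 3.11.15, numpy 2.4.6, scipy 1.17.1, pandas 2.3.3 and matplotlib 3.10.9 were used. Alternatives changed the cell filter, the scaling, the pseudocount, the minimum count, the thinning and the genes summed.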

Additional observations from a re-analysis of the deposited data

Results flagged for a closer look

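Barcodes that the cell filter left out also held germline UMIs after 5-Aza. The 10 genes summed to 9.30 CPM (7.43 to 11.5) in 9009 such barcodes of H3WT 5-Aza, against 0 UMIs in the 2529 of H3WT DMSO, and to 10.4 CPM (8.14 to 13.1) in 4491 of H3R26C 5-Aza, against 1.49 CPM (0.306 to 4.34), from 3 UMIs, in the 1813 of H3R26C DMSO. These values stood out because they lie in barcodes outside the comparisons of the report, above the level in the same barcodes of the control libraries. Such barcodes entered only the recomputed ratios with a looser or no cell filter. The kept cells of the same libraries were at 7.47 CPM (6.90 to 8.08) in H3WT 5-Aza and 15.0 CPM (14.3 to 15.7) in H3R26C 5-Aza. The intervals of left-out barcodes and kept cells overlapped in H3WT, and the left-out barcodes were below the kept cells in H3R26C. Median UMIs of the left-out barcodes were 705 and 978. Their source was not tested.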

How the results depend on the processing

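Of 72 recomputed values, 56 stayed within the counting interval, or within 1.5 times for counts of genes, and 16 moved beyond it. A change of direction could be scored only for the summed ratios, and none of these changed direction. Between the DMSO libraries, leaving out Tex19.1 could not move the ratio, because it had 0 UMIs in both. Without Tex19.1 the summed ratios moved to 4.89 (H3WT, 5-Aza over DMSO), 4.04 (H3R26C, 5-Aza over DMSO) and 1.61 (H3R26C over H3WT after 5-Aza), because that gene gave most UMIs. A pseudocount of 1 CPM, which lies above most of these levels, left 1 gene called higher in H3WT, 2 in H3R26C, 0 between DMSO libraries and 1 between 5-Aza libraries. Without thinning the shares of cells were 1.13%, 7.23%, 1.44% and 12.1% and the cells with at least 2 genes 29 and 52 in the 5-Aza libraries. Another seed gave 0.162% and the stricter filter 0.197% in H3WT DMSO, and the stricter filter gave 6.36% in H3R26C 5-Aza. The median of all genes shifted by at most 0.06 on the log2 scale with size factors. Depth limits Dazl, Mael, Stk31 and Hormad1, at or under 3 UMIs per library. No paired analysis was possible because a condition is a single library with no partner, and for the same reason none could be left out.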

Other observations

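Over all genes, 11594 had 0 UMIs in both DMSO libraries, and 309 of these (2.67%) had more than 3 UMIs in both 5-Aza libraries. Of the 11594, 8888 had 0 UMIs in all 4 libraries, so the 2.67% is no like-for-like base for the lists below. Of the 10 germline genes 3 were at 0 in both DMSO libraries, and Tex19.1 and Slc25a31 were the 2 over 3 UMIs in both 5-Aza libraries. By UMIs in the 5-Aza libraries Tex19.1 was number 8 of the 11594. In the other lists the same held for 3 of 7 piRNA pathway genes (Fkbp6, Gtsf1 and Mov10l1), for 2 of 9 meiotic chromosome genes (Syce1 and Tex12) and for 7 of 11 other germ cell and placental genes (Tex13b, Xlr3a, Rhox2a, Xlr4a, Tex101, Taf7l and Tuba3a). The skeletal muscle markers summed to 27.1, 1861, 20.2 and 2229 CPM and the adipocyte markers to 70.7, 262, 148 and 145 CPM in H3WT DMSO, H3WT 5-Aza, H3R26C DMSO and H3R26C 5-Aza.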
